A study of Danio rerio with 6 samples.

Results

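The genes described here are the tumour necrosis factor (TNF) superfamily ligands, their receptors and the TNF receptor-associated factors (TRAFs) of the zebrafish. They were taken from the gene table by name, as every symbol that begins with tnfsf, tnfrsf or traf and goes on with a digit. The rule found 31 genes among 25645, made up of 9 ligands, 9 receptors, 9 TRAFs and 4 genes for TRAF-interacting proteins that share the name. RNA sequencing measured them in 3 samples of wild-type fish and in 3 of fish homozygous for pikfyve-delta8, a single allele made by CRISPR/Cas9 editing. The submitters describe that allele as deficient in the kinase domain of Pikfyve, a lipid kinase of late endosomes and lysosomes. Strain, age, sex and tissue of the fish are not given in the sources used here, nor is whether a sample was 1 fish or a pool. If they were not separate fish, p-values reflect spread that may be technical only.

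TNF superfamily ligands are membrane-bound or shed trimers that cluster receptors on neighbouring cells. Some receptors carry a death domain that can start caspase-driven cell death, and others bind TRAFs directly. TRAFs are adaptors, most of them with a ubiquitin ligase RING finger, that pass the signal to the NF-kB and MAP kinase pathways. In vertebrates the family is known for inflammation, lymphocyte survival, bone resorption by osteoclasts, and the growth and death of skin and nerve cells.

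The deposited table held 14677252 to 14949605 estimated read counts per sample. Levels are given as CPM, the usual depth-scaled count of a gene, scaled with TMM factors, so that a single count was worth 0.0635 to 0.0728 CPM. Mutant samples differed more among themselves (correlation of log2 levels over all genes tested, Pearson's r 0.975 to 0.980) than wild-type samples did (0.991 to 0.992). The pikfyve transcript itself stood at 54.2 ± 2.27 CPM in wild type and 66.0 ± 6.66 CPM in the mutants (SD, n = 3 each), summed over the whole gene, so this is no check of the edit. The labels name no tissue whose markers could be checked, and markers of neurons, epidermis, endothelium, bone and blood cells were all detected. In bulk samples fewer cells of a type and less RNA per cell cannot be told apart.

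Of 6 receptors tested 4 rose in the mutants, of 9 TRAFs 5 rose, and of 7 ligands tested 1 rose and 1 fell. No test was made of the difference between classes. Of the 31 genes, 26 had enough counts to be tested, each with at least 10 counts in every one of the 6 samples. Of these, 14 changed, 13 up and 1 down, at an adjusted p under 0.05 (edgeR quasi-likelihood test, two-sided, Benjamini-Hochberg adjustment over all genes). Among all 21104 genes tested 48.0% changed, 25.1% up and 23.0% down, and the family's share of rises lay above that background, with no test made of the difference. The median log2 fold change (mutant minus wild type) of the 26 genes was 0.54, beside 0.00 for all genes. A rise of at least 2-fold was found for 8 of them, beside 7.43% of all genes, and a fall of that size for 0, beside 5.77%. The genotypes did not overlap for 16 of the 26 genes, against 58.8% of all genes, which is close to the background. Scaling by library size alone shifted the median of all genes by -0.14 and that of the family to 0.40. With that scaling 12 of the 26 rose and 2 fell, beside 18.1% and 31.1% of all genes. On the log2(FPKM + 1) scale 11 of 23 rose and 2 fell, beside 18.8% and 33.0%, and on the log2(FPKM + 0.1) scale 11 and 2, beside 18.8% and 32.6%. FPKM is the count per length of transcript and depth.

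**Figure D1:**
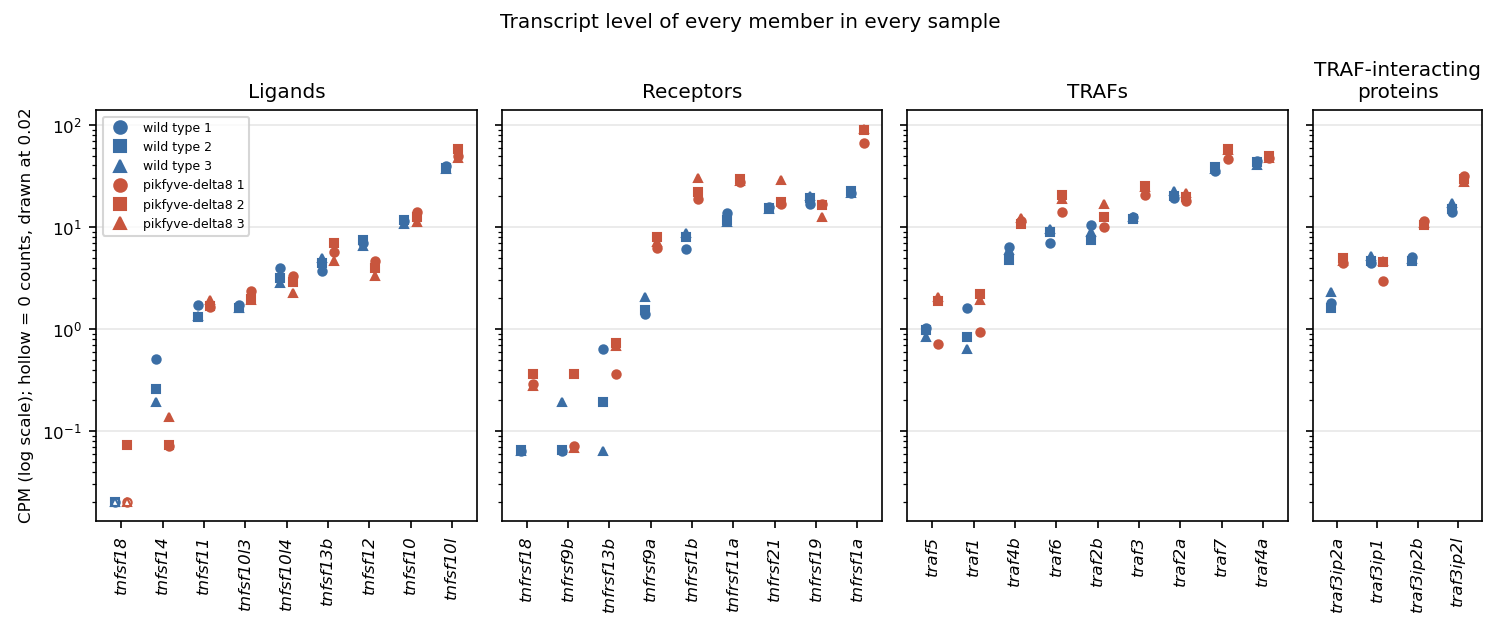
Transcript level (CPM, log axis) of each of the 31 genes in each sample, with wild type in blue and pikfyve-delta8 in red and 1 symbol per replicate number. Hollow symbols are samples with 0 counts. The receptors tnfrsf1a, tnfrsf1b, tnfrsf9a and tnfrsf11a lie higher in every mutant than in every wild-type sample, and most ligands lie at similar levels in both genotypes.

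The 6 receptors tested had a median log2 fold change of 1.44. Among them 4 rose and 0 fell, beside 25.1% up and 23.0% down for all genes. All 4 rose at least 2-fold, and their calls held under all 16 alternative settings. The receptor tnfrsf1a (Gene ID 406471) is the death domain receptor for TNF, which starts both NF-kB signalling and cell death. It stood at 21.6, 22.7 and 21.6 CPM in wild-type replicates 1, 2 and 3 and at 66.0, 90.1 and 91.2 CPM in pikfyve-delta8 replicates 1, 2 and 3. Every mutant was far above every wild-type sample, and mutant replicate 1 was the lowest of the 3. Its log2 fold change was 1.91 ± 0.12 (SE; a 3.75-fold rise, edgeR adjusted p = 5.5e-06).

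The second TNF receptor, tnfrsf1b (Gene ID 100037357), has no death domain and signals through TRAFs. Its levels were 6.10, 7.90 and 8.65 CPM in wild type and 18.8, 22.2 and 29.9 CPM in the mutants. The genotypes did not overlap, and mutant replicate 3 was the highest. The log2 fold change was 1.65 ± 0.19 (edgeR adjusted p = 0.000157). The ratio of tnfrsf1a to tnfrsf1b was not shown to differ. On the log2 scale of CPM + 0.5 it was 1.49 ± 0.24 in wild type and 1.79 ± 0.20 in the mutants (SD, n = 3, exact permutation test, p = 0.20).

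The gene tnfrsf9a (Gene ID 678622) is named after the mammalian costimulatory receptor of T lymphocytes. On the CPM scale it had the largest fold change of the 26 genes tested. Wild-type samples held 1.40, 1.55 and 2.05 CPM and mutants 6.25, 7.93 and 7.12 CPM, with no overlap. The log2 fold change was 2.08 ± 0.20 (edgeR adjusted p = 3.94e-05), and it was 1.30 on the scale of log2(FPKM + 1), which compresses low genes and on which tnfrsf1a had 1.66. Its namesake tnfrsf9b was barely detected, with 1, 1 and 3 counts in wild type and 1, 5 and 1 in the mutants, and was not tested.

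The receptor tnfrsf11a (Gene ID 100333821), known as RANK, drives the formation of osteoclasts when it binds its ligand tnfsf11. It stood at 13.6, 11.7 and 11.1 CPM in wild type and at 27.6, 29.7 and 28.1 CPM in the mutants, a tight group well above the wild-type samples. Its log2 fold change was 1.23 ± 0.11 (edgeR adjusted p = 2.09e-05). The ligand tnfsf11 did not pass the test, at 1.45 ± 0.230 CPM in wild type and 1.75 ± 0.148 CPM in the mutants (log2 fold change 0.27 ± 0.25, edgeR adjusted p = 0.398).

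The other tested receptors are best known from the nervous system. The death domain receptor tnfrsf21 was at 15.6, 15.2 and 15.0 CPM in wild type and at 16.9, 17.6 and 28.6 CPM in the mutants. Mutant replicate 3 alone was far above the rest. The gene did not pass the test (log2 fold change 0.47 ± 0.19, edgeR adjusted p = 0.0681), but did when pikfyve-delta8 replicate 1 or 2 was left out (adjusted p = 0.0303 and 0.0348). The receptor tnfrsf19, expressed by neural and epithelial progenitors in mammals, was at 18.6 ± 1.81 CPM in wild type and 15.2 ± 2.45 CPM in the mutants (SD, n = 3). Its log2 fold change of -0.29 ± 0.14 did not pass (edgeR adjusted p = 0.108). It passed as lower with library size alone (log2 fold change -0.44, adjusted p = 0.0176) and on the FPKM scale (adjusted p = 0.0160 and 0.0165).

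Receptors with too few counts were tnfrsf9b, tnfrsf13b and tnfrsf18. The gene tnfrsf18, named after a costimulatory receptor of mammalian T lymphocytes, had 3 counts in wild type and 13 in the mutants, all samples added. The mutants thus had 4.80 times the wild-type level (exact 95% interval 1.32 to 26.2, for counting error only). With no filter on low counts it passed edgeR's test (adjusted p = 0.0421), and with DESeq2 it did not (adjusted p = 0.183). The gene tnfrsf13b, named after the B lymphocyte receptor TACI, had 14 and 25 counts, and its genotypes overlapped.

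Per unit of transcript length, the receptor pool was larger in the mutants and was made up differently. The FPKM values of the 9 receptors summed to 32.6 to 33.7 in the wild-type samples and to 57.0 to 78.7 in the mutants. In wild type tnfrsf1a made 31.2% ± 0.992 of that sum and tnfrsf19 29.0% ± 2.42, so the pair was nearly level. In the mutants tnfrsf1a made 51.1% ± 2.59 and tnfrsf19 10.6% ± 2.67 (SD, n = 3). Their wild-type samples overlapped (10.12 to 10.43 and 8.58 to 10.48 FPKM). The order of mean FPKM in wild type ran from tnfrsf1a over tnfrsf19, tnfrsf21, tnfrsf11a and tnfrsf1b to tnfrsf9a. In the mutants tnfrsf11a stood second, and its samples (7.69 to 9.49 FPKM) overlapped those of tnfrsf21 (5.91 to 10.59 FPKM). The shares are descriptions and were not tested.

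**Figure D2:**
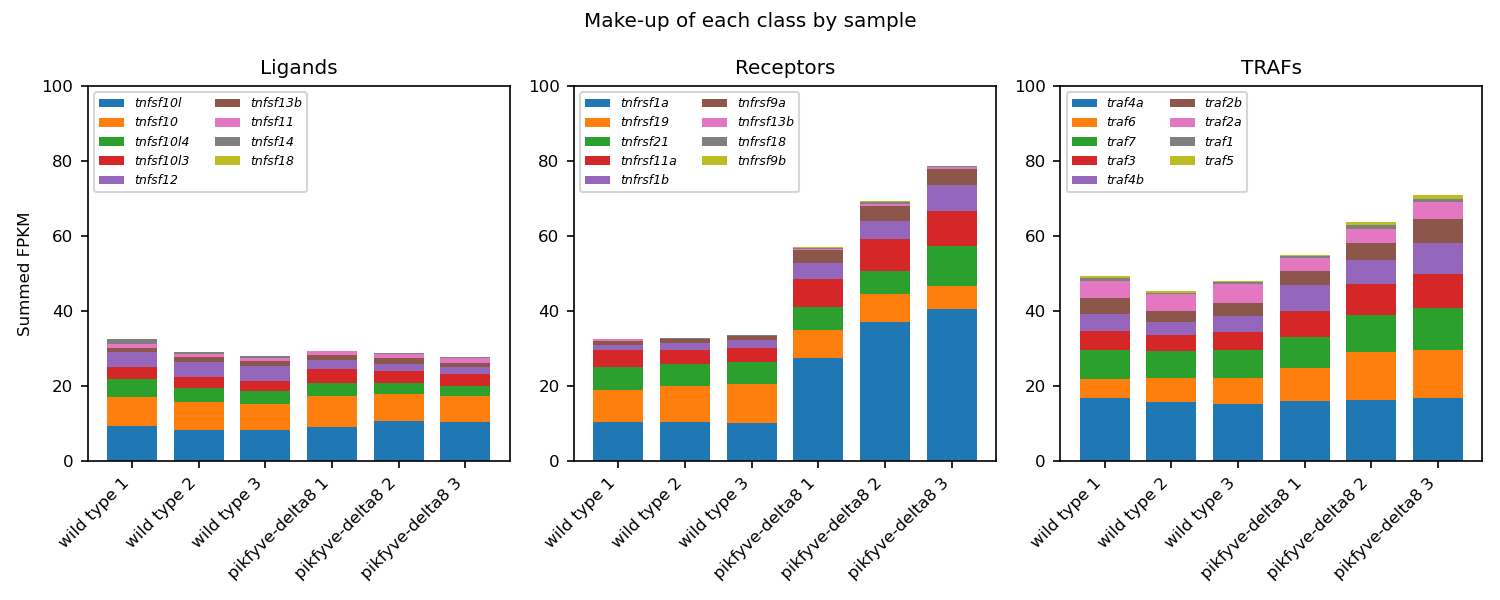
Summed FPKM of the ligands, receptors and TRAFs in each sample, with 1 colour per gene. Receptor sums run from 32.6 to 33.7 in wild type and from 57.0 to 78.7 in the mutants. Their tallest part is tnfrsf1a, except in wild-type replicate 3, where tnfrsf19 is taller (10.48 against 10.12 FPKM). Ligand sums run from 27.9 to 32.4 in wild type and from 27.7 to 29.4 in the mutants.

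Of 7 ligands tested, 1 rose and 1 fell, beside 25.1% up and 23.0% down for all genes. Their median log2 fold change was 0.27, with 5 values above 0. The sum over all 9 ligands depended on the scale. In CPM it was 65.4 to 69.1 in wild type and 73.1 to 87.7 in the mutants, higher in every mutant. In FPKM it was 27.9 to 32.4 and 27.7 to 29.4, which overlapped. The genes named tnfsf10 belong to the group of TRAIL, a ligand that can trigger death of its target cells. The most abundant of them, tnfsf10l (Gene ID 114466), was at 39.3, 38.0 and 37.2 CPM in wild type and at 49.9, 57.7 and 47.7 CPM in the mutants. It was higher in each mutant, by 0.44 ± 0.09 on the log2 scale (edgeR adjusted p = 0.00238). On the FPKM scale the call was lost (log2 fold change 0.20 and 0.21, adjusted p = 0.115 and 0.114 with pseudocounts of 1 and 0.1), and with library size alone the log2 fold change was 0.29.

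The other TRAIL-related ligands did not pass the test. The gene tnfsf10 was at 11.2 ± 0.460 CPM in wild type and 12.5 ± 1.31 CPM in the mutants, and tnfsf10l3 at 1.65 ± 0.0615 and 2.08 ± 0.248 CPM. The gene tnfsf10l4 was at 3.31 ± 0.573 and 2.82 ± 0.527 CPM. Adjusted p for these 3 genes ran from 0.241 to 0.415 (edgeR). The ligand tnfsf13b, known as BAFF and needed for B lymphocyte survival in mammals, was at 4.36 ± 0.656 and 5.73 ± 1.16 CPM (edgeR adjusted p = 0.129). Among the 16 alternatives it passed with pikfyve-delta8 replicate 3 left out (adjusted p = 0.0383) and in no other.

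Of the 31 genes chosen by name, tnfsf12 was the one that fell (Gene ID 567542). It encodes TWEAK, a ligand that acts in tissue repair and blood vessel growth in mammals. Wild-type samples lay between 6.53 and 7.39 CPM and mutants between 3.29 and 4.67 CPM. The fall of 0.81 ± 0.17 on the log2 scale passed the test (log2 fold change -0.81, edgeR adjusted p = 0.00324) and all 16 alternatives (adjusted p 0.00121 to 0.0198). The ligands tnfsf14 and tnfsf18 had too few counts. The gene tnfsf14, named after the ligand LIGHT, had 15 counts in wild type and 4 in the mutants, or 0.295 times the wild-type level (exact 95% interval 0.0713 to 0.927). With no filter on low counts it did not pass (edgeR adjusted p = 0.104). For tnfsf18 there was 1 count in all 6 samples together. In the GRCz12tu annotation tnfsf14 and tnfsf18 are direct neighbours.

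**Figure D3:**
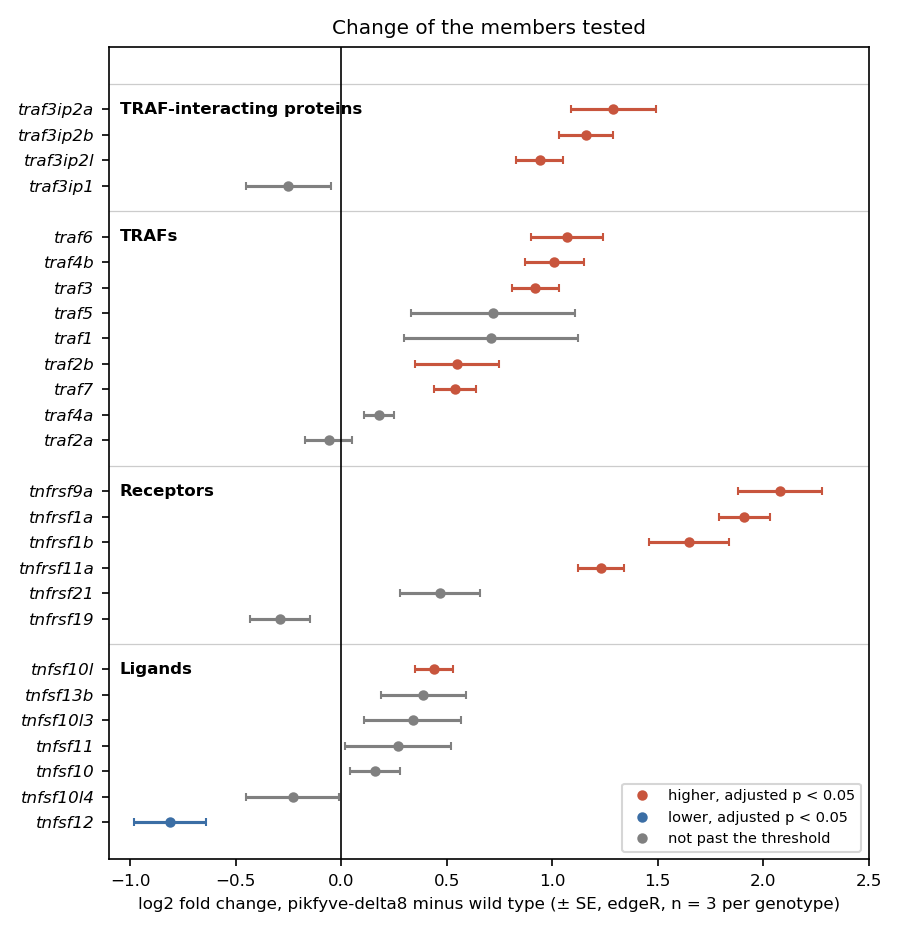
Log2 fold change (pikfyve-delta8 minus wild type, ± SE, n = 3 per genotype) of the 26 genes tested, by class, with genes past the threshold in red (higher) or blue (lower) and the others in grey. The 4 receptors at the top of their class lie between 1.23 and 2.08, and tnfsf12, at -0.81, is the only gene in blue.

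All 9 TRAF genes were tested, and 5 rose and 0 fell, beside 25.1% up and 23.0% down for all genes. The median log2 fold change of the TRAFs was 0.71. Their summed FPKM was 45.4 to 49.4 in wild type and 55.0 to 70.9 in the mutants. Within that sum the share of traf4a went from 33.5% ± 1.54 to 26.0% ± 2.71 and that of traf6 from 12.8% ± 2.12 to 18.2% ± 1.94 (SD, n = 3, not tested). The gene traf6 (Gene ID 554561) encodes the ubiquitin ligase that serves interleukin-1 and Toll-like receptors as well as RANK. It was at 6.99, 8.94 and 9.48 CPM in wild type and at 14.0, 20.5 and 18.9 CPM in the mutants. Every mutant lay above every wild-type sample, with mutant replicate 1 the lowest. The log2 fold change was 1.07 ± 0.17 (edgeR adjusted p = 0.000678). The gene traf3 encodes a TRAF that holds back non-canonical NF-kB signalling by having the kinase NIK degraded. It rose from 12.0 to 12.6 CPM across the wild-type samples to 20.4 to 25.4 CPM across the mutants (log2 fold change 0.92 ± 0.11, edgeR adjusted p = 0.000155).

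In the traf4 pair only the b copy passed the test. The gene traf4b (Gene ID 404035) was at 6.35, 4.79 and 5.89 CPM in wild type and at 11.3, 10.7 and 12.3 CPM in the mutants (log2 fold change 1.01 ± 0.14, edgeR adjusted p = 0.000371). Its copy traf4a (Gene ID 404045), the most abundant TRAF, was at 43.8, 42.9 and 40.8 CPM in wild type and at 47.7, 49.3 and 47.2 CPM in the mutants. The mutants were all above, and the difference did not pass the test (log2 fold change 0.18 ± 0.07, edgeR adjusted p = 0.0642). TRAF4 is known from mammals for roles in development, cell polarity and migration. The log2 ratio of traf4a to traf4b was 2.81 ± 0.20 in wild type and 2.03 ± 0.13 in the mutants (SD, n = 3), lower in every mutant than in every wild-type sample.

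The gene traf2 encodes the main adaptor of TNF receptors and also has an a and a b copy. The copy traf2a was at 19.3, 20.1 and 22.4 CPM in wild type and at 18.0, 19.6 and 21.4 CPM in the mutants, with wide overlap (log2 fold change -0.06 ± 0.11, edgeR adjusted p = 0.645). The copy traf2b was at 10.4, 7.39 and 8.97 CPM in wild type and at 9.98, 12.4 and 16.6 CPM in the mutants. The genotypes overlapped, since mutant replicate 1 lay below wild-type replicate 1. The gene was called higher by a narrow margin (log2 fold change 0.55 ± 0.20, edgeR adjusted p = 0.0452). That call was lost in 10 of 16 alternatives, and with pikfyve-delta8 replicate 3 left out it had a log2 fold change of 0.31 (adjusted p = 0.139). Leaving out wild-type replicate 2 or 3 or pikfyve-delta8 replicate 2 also ended it (adjusted p = 0.162, 0.116 and 0.0624).

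With 3 samples against 3 an exact two-sided permutation test cannot give a p below 0.10. The log2 ratios of traf4a to traf4b, traf2a to traf2b and tnfrsf9a to tnfrsf9b each reached that value (0.17 adjusted over the 5 pairs). They moved by -0.78, -0.57 and 1.70 from wild type to mutant. For traf2a to traf2b the genotypes were barely separate, at 0.82 in pikfyve-delta8 replicate 1 and 0.85 in wild-type replicate 1. The pair tnfrsf9a and tnfrsf9b rests on a copy with 1 to 5 counts per sample. For traf3ip2a and traf3ip2b the ratio moved by 0.03 (exact permutation p = 1.00).

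**Figure D4:**
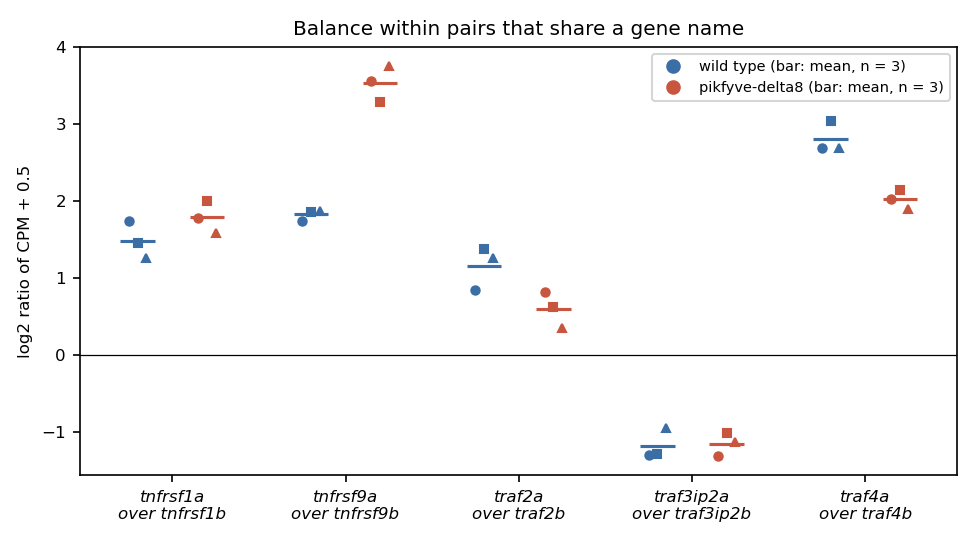
Log2 ratio of CPM + 0.5 within the 5 pairs of genes that differ only in a final a or b, for each sample (1 symbol per replicate number), with the mean of each genotype as a bar. The ratio of traf4a to traf4b lies lower in every mutant than in any wild-type sample. That of traf2a to traf2b does so by a narrow margin (0.82 in mutant replicate 1, 0.85 in wild-type replicate 1). The ratio of traf3ip2a to traf3ip2b overlaps between the genotypes.

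Of the remaining TRAFs, traf7 rose. Its product carries WD40 repeats in place of the TRAF domain that binds receptors. It was at 35.5, 38.4 and 37.1 CPM in wild type and at 46.4, 58.5 and 56.6 CPM in the mutants, without overlap (log2 fold change 0.54 ± 0.10, edgeR adjusted p = 0.00138; 0.34 on the log2(FPKM + 1) scale). It was the only gene of the family whose estimated counts were not whole numbers, so some of its reads were split with another gene. The genes traf1 and traf5, known from lymphocytes, were the least abundant TRAFs. The gene traf1 was at 1.02 ± 0.499 CPM in wild type and 1.68 ± 0.659 CPM in the mutants, and traf5 at 0.940 ± 0.0960 and 1.56 ± 0.730 CPM. Neither passed the test (edgeR adjusted p = 0.185 and 0.149). Without pikfyve-delta8 replicate 1, in which traf5 was at 0.718 CPM, traf5 passed it (log2 fold change 1.06, adjusted p = 0.0144).

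Of the 4 TRAF-interacting genes 3 rose and 0 fell (median 1.05), beside 25.1% up and 23.0% down for all genes. Their summed FPKM was 13.5 to 15.6 in wild type and 24.4 to 25.5 in the mutants. Those named traf3ip2 encode forms of Act1, the adaptor that links interleukin-17 receptors to TRAFs, and all of them rose. The gene traf3ip2a (Gene ID 606616) was at 1.78, 1.62 and 2.31 CPM in wild type and at 4.38, 4.95 and 4.66 CPM in the mutants (log2 fold change 1.29 ± 0.20, edgeR adjusted p = 0.000613; 0.76 on the log2(FPKM + 1) scale). The gene traf3ip2b (Gene ID 386940) was at 5.08, 4.66 and 4.87 CPM and at 11.5, 10.5 and 10.8 CPM (log2 fold change 1.16 ± 0.13, edgeR adjusted p = 8.03e-05). Both had tight, separate groups. The related traf3ip2l rose from 15.5 ± 1.56 to 29.7 ± 2.24 CPM (log2 fold change 0.94 ± 0.11, edgeR adjusted p = 0.000104). The gene traf3ip1 encodes a protein of intraflagellar transport in cilia. It was at 4.77 ± 0.380 CPM in wild type and 4.02 ± 0.929 CPM in the mutants and did not pass (edgeR adjusted p = 0.337).

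Mutant samples differed in the order of their values. Of the 13 genes that rose, 9 had their lowest mutant value in pikfyve-delta8 replicate 1, 2 in replicate 2 and 2 in replicate 3. The highest mutant value lay in replicate 2 for 7 genes and in replicate 3 for 4. Over all 5295 genes that rose, replicate 1 was the lowest mutant for 39.1% and replicate 2 the highest for 41.9%, and the 13 genes were not tested against that. The cause of this order was not tested.

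Family genes under other names were read from a list of the pathway. Of 6 such ligands in the table, 2 could be tested. The TNF gene tnfb (Gene ID 554167) rose from 0.635, 0.713 and 0.769 CPM to 2.30, 5.53 and 1.85 CPM, with mutant replicate 2 well above the others (log2 fold change 2.17 ± 0.46, edgeR adjusted p = 0.00372). Its log2 fold change was 1.54 without that sample and 1.14 on the log2(FPKM + 1) scale. The other TNF gene, tnfa, had 1 count in wild type and 6 in the mutants. The Fas ligand and CD40 ligand genes faslg and cd40lg were at 0.0428 and 0.0213 CPM in wild type and at 0.0485 and 0.0721 CPM in the mutants, within a few counts of 0. The gene eda, whose product shapes scales, fins and teeth, was at 0.983 and 1.18 CPM and did not pass (edgeR adjusted p = 0.543).

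Of 8 tested receptors under other names, 3 rose and 2 fell, which is near the 25.1% and 23.0% of all genes. The death receptor gene fas was at 0.953, 1.04 and 1.86 CPM in wild type and at 4.38, 4.22 and 6.71 CPM in the mutants (log2 fold change 1.99 ± 0.30, edgeR adjusted p = 0.000517; 0.89 and 1.25 on the FPKM scale with pseudocounts of 1 and 0.1). The gene cd40, a receptor of antigen-presenting cells, was at 2.22, 1.88 and 2.24 CPM and at 4.24, 7.43 and 7.06 CPM (log2 fold change 1.56 ± 0.24, edgeR adjusted p = 0.000611; 1.01 on the log2(FPKM + 1) scale). The gene relt was at 9.66, 10.4 and 9.61 CPM and at 12.0, 14.2 and 11.4 CPM. Its call (log2 fold change 0.34, edgeR adjusted p = 0.0411) was lost in 11 of 16 alternatives, among them leaving out any wild-type replicate (adjusted p = 0.127, 0.0825 and 0.133) or pikfyve-delta8 replicate 2 (adjusted p = 0.137). Library size alone gave it 0.20.

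In the opposite direction, ngfra, which encodes a p75 neurotrophin receptor, fell from 4.96, 4.53 and 3.65 CPM to 1.51, 1.31 and 2.12 CPM (log2 fold change -1.40 ± 0.24, edgeR adjusted p = 0.000994; -0.83 on the log2(FPKM + 1) scale). Its copy ngfrb was at 3.21 ± 0.260 CPM in wild type and 4.38 ± 1.26 CPM in the mutants and did not pass (edgeR adjusted p = 0.144). The gene hdr, a death receptor of zebrafish blood cells that binds TRAIL-type ligands, fell from 11.5, 13.1 and 10.6 CPM to 4.95, 8.66 and 7.12 CPM (log2 fold change -0.76 ± 0.19, edgeR adjusted p = 0.00822).

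Downstream of the receptors, genes of the kinase relay went both ways, 1 gene of the death domain pathway fell and no NF-kB gene fell. Of 21 tested genes of death domain signalling and cell death, 9 rose and 1 fell (median log2 fold change 0.42), beside 25.1% up and 23.0% down for all genes. The gene cflara, whose product c-FLIP restrains caspase-8, rose from 13.6, 14.2 and 16.7 CPM to 30.9, 45.1 and 37.5 CPM (log2 fold change 1.35 ± 0.14, edgeR adjusted p = 7.83e-05). The caspase-8 gene casp8 rose from 5.85, 6.48 and 6.60 CPM to 11.1, 18.2 and 14.2 CPM (a 2.30-fold rise, edgeR adjusted p = 0.000500). The necroptosis kinase gene ripk3 rose from 4.77, 4.99 and 5.06 CPM to 8.83, 12.5 and 11.7 CPM (edgeR adjusted p = 0.000305), with a log2 fold change of 1.16, or 0.73 on the log2(FPKM + 1) scale. The member that fell was the executioner caspase gene casp3a, from 81.8, 84.1 and 85.5 CPM to 75.5, 66.2 and 62.5 CPM (log2 fold change -0.30 ± 0.08, edgeR adjusted p = 0.0134). Leaving out wild-type replicate 2 or 3 ended that call (adjusted p = 0.0508 and 0.0583).

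Among 25 genes of the ubiquitin and kinase relay 11 rose and 5 fell (median 0.21), beside the same 25.1% and 23.0%. The largest rise was that of the gene listed as si:ch211-15b10.6, which the GRCz12tu annotation calls tifa. Its product binds TRAF6 in mammals. It was at 26.1, 27.3 and 27.6 CPM in wild type and at 131, 188 and 143 CPM in the mutants (log2 fold change 2.51 ± 0.13, edgeR adjusted p = 2.11e-06). The autophagy and NF-kB adaptor gene optn rose from 25.4, 23.1 and 24.7 CPM to 53.5, 59.2 and 60.8 CPM (log2 fold change 1.24 ± 0.08, edgeR adjusted p = 5.01e-06). The copies of the NIK gene, the kinase that TRAF3 controls, went opposite ways. The copy map3k14a rose from 20.3, 20.9 and 20.3 CPM to 41.9, 50.9 and 54.7 CPM (log2 fold change 1.26 ± 0.11, edgeR adjusted p = 1.67e-05). The copy listed as LOC795766, map3k14b in the GRCz12tu annotation, fell from 14.4, 13.9 and 14.8 CPM to 9.19, 5.31 and 7.60 CPM (log2 fold change -0.96 ± 0.17, edgeR adjusted p = 0.00141). The genes ube2na and ube2nb, for the ubiquitin-conjugating enzyme that works with TRAF6, both fell. The gene ube2na went from 117, 118 and 120 CPM to 98.7, 95.1 and 89.3 CPM (log2 fold change -0.32 ± 0.07, edgeR adjusted p = 0.00363). The gene ube2nb went from 49.1, 48.4 and 47.3 CPM to 40.4, 38.9 and 35.3 CPM (log2 fold change -0.34 ± 0.08, edgeR adjusted p = 0.00549).

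Of 21 tested genes of NF-kB factors and feedback inhibitors, 13 rose and 0 fell, with a median of 0.86, again beside 25.1% and 23.0%. The gene bcl3, an atypical IkB protein, was at 2.61, 3.50 and 2.63 CPM in wild type and at 17.4, 30.9 and 28.8 CPM in the mutants (log2 fold change 3.14 ± 0.24, edgeR adjusted p = 2.2e-05; 1.89 on the log2(FPKM + 1) scale). The gene tnfaip2b rose from 2.48, 2.33 and 3.07 CPM to 15.3, 30.1 and 17.0 CPM (log2 fold change 2.98 ± 0.29, edgeR adjusted p = 0.000103; 2.12 with FPKM and a pseudocount of 1). Its copy tnfaip2a, at 16.8 ± 0.948 CPM in wild type and 18.5 ± 1.42 CPM in the mutants, did not pass (edgeR adjusted p = 0.300). The gene tnfaip8l2b rose from 13.4, 13.0 and 14.8 CPM to 23.8, 25.7 and 28.2 CPM (log2 fold change 0.92 ± 0.11, edgeR adjusted p = 0.000113). The factor genes nfkb1, nfkb2, rela and relb also rose (log2 fold change 0.99, 0.68, 0.96 and 1.17, edgeR adjusted p = 0.00299, 0.00526, 0.005 and 0.000145). So did tnfaip3, nfkbiz, tnip2, tnfaip8l2a, zc3h12a and sqstm1. Genes of the list that did not pass included rel and the inhibitor genes nfkbiaa, nfkbiab, nfkbib and nfkbie (edgeR adjusted p = 0.073, 0.153, 0.609, 0.155 and 0.0669).

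**Figure D5:**
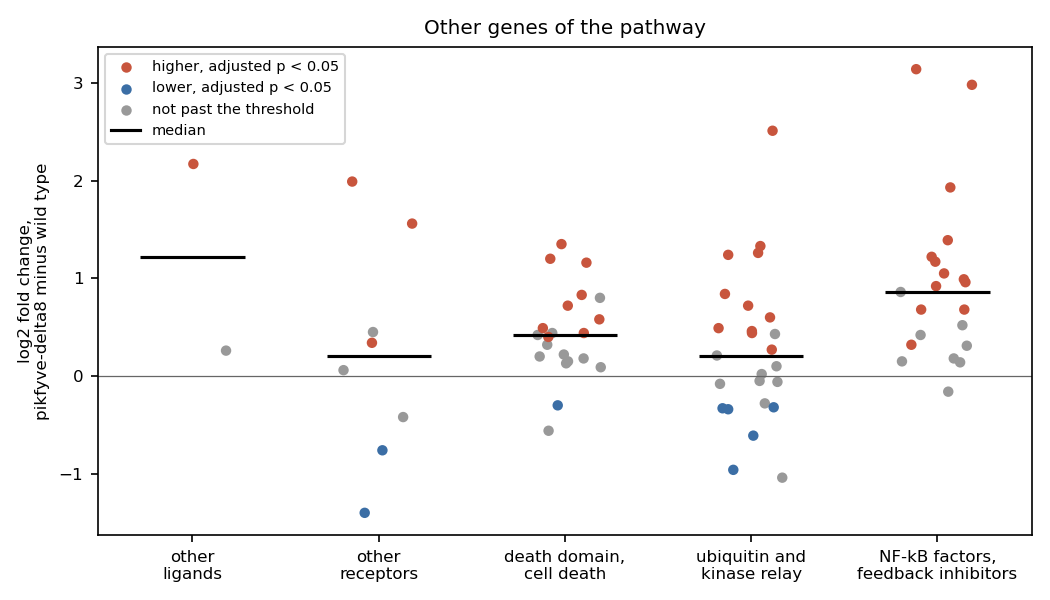
Log2 fold change (pikfyve-delta8 minus wild type) of the tested genes in 5 lists of the pathway that lie outside the name rule, with each gene as a point, genes past the threshold in red (higher) or blue (lower) and the median of each list as a black bar. The NF-kB list has its median at 0.86 and no blue point, and the kinase relay list, with its median at 0.21, has points of both colours.

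Markers of several cell types were measured beside the receptors. Bulk samples do not show which cells carry the receptors. Each list that follows is set beside the background of 25.1% up and 23.0% down for all genes. Of 12 tested genes listed as neutrophil markers, 11 rose and 0 fell. Their summed level was 1916.8 to 2091.8 CPM in wild type and 3384.9 to 3809.9 CPM in the mutants, most of it from cpa5, and 288 to 319 and 973 to 1358.2 CPM without that gene. Much of the rest was cebpb (164 and 627 CPM), which other cells also express. Without cpa5, cebpa and cebpb the sums were 70.4 to 76.3 and 313 to 500 CPM. Those left-out genes are all among the 11 that rose. The neutrophil peroxidase gene mpx stood at 9.79 ± 0.732 and 147 ± 60.4 CPM. Of 17 macrophage and microglia markers 7 rose and 4 fell, with sums of 2165.3 to 2221.3 and 2254.6 to 2599.6 CPM. Most of that was apoeb, which rose, and apoc1, which fell, and without both the sums were 120 to 127 and 152 to 238 CPM. In FPKM the full sums were 2855.6 to 3126.6 and 2379.9 to 2705.5, lower in every mutant. Most of that too was apoc1 (means 1885.3 and 1098.8 FPKM) and apoeb (means 1001.7 and 1310.2 FPKM). FPKM sums without both were not taken. Single macrophage markers went both ways. The gene mpeg1.1 fell from 7.16 ± 0.663 to 1.97 ± 0.199 CPM (edgeR adjusted p = 3.37e-05), and marco and slc7a7 also fell. The gene irf8 rose from 1.58 ± 0.157 to 13.7 ± 6.06 CPM (edgeR adjusted p = 0.00031), and spi1a, spi1b, ctss2.1, ctss2.2 and ptprc also rose. The gene mpeg1.2 was at 26.8, 77.6 and 26.9 CPM in mutant replicates 1, 2 and 3 and did not pass (edgeR adjusted p = 0.0525). Markers of endothelium rose for 11 of 14 genes and fell for 0, with sums of 248 to 260 and 404 to 423 CPM. Their part in the rise of receptors and TRAFs was not tested.

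For osteoclast markers, set here beside tnfrsf11a, 5 of 7 tested rose and 1 fell. The sum without mmp9, a protease of many cells, was 45.1 to 48.9 CPM in wild type and 76.5 to 85.2 CPM in the mutants (63.1 to 67.6 and 228 to 554 CPM with it). Among them ctsk rose from 24.3 ± 1.15 to 52.3 ± 4.13 CPM and ocstamp from 0.278 ± 0.0397 to 2.64 ± 0.558 CPM (edgeR adjusted p = 1.2e-05 and 5.74e-05). With 4 to 5 counts per wild-type sample, ocstamp passed the count filter through the mutants. The osteoclast marker that fell was calcr, from 6.16, 8.03 and 6.21 CPM to 2.08, 2.04 and 3.97 CPM (edgeR adjusted p = 0.00232). The genes dcstamp (25 counts in wild type and 16 in the mutants) and siglec15l (7 and 5 counts) were not tested. Of 9 osteoblast markers 2 rose and 3 fell, with sums of 2688.4 to 3081.8 and 2154.0 to 3253.2 CPM. Most of that was col1a1a, a collagen gene of many tissues. Without it and col10a1a the sums were 101 to 103 and 86.6 to 102 CPM, and the genes that fell were sp7, alpl and ifitm5. Those that rose were runx2b, from 5.00 ± 0.338 to 8.18 ± 0.395 CPM, and spp1, from 7.45 ± 0.795 to 13.7 ± 3.64 CPM (edgeR adjusted p = 0.00208 and 0.00374). Their part in the change of tnfrsf11a was not tested.

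T lymphocyte markers, set here beside tnfrsf9a, were at low levels. Of 18 genes listed with values 8 could be tested, 3 rose and 1 fell, and the sums were 24.7 to 27.0 CPM in wild type and 26.3 to 29.1 CPM in the mutants. Most of that sum came from rag1, runx3, ccr9a and tcf7, and without them it was 3.81 to 5.57 and 5.96 to 7.86 CPM. Those that rose were lck, itk and il7r (2.44-fold, 2.84-fold and 1.92-fold, edgeR adjusted p = 0.01, 0.0212 and 0.0393). These 3 genes had 3 to 10 counts per wild-type sample and passed the count filter through the mutants. Their number is therefore no fair comparison with the background. The marker that fell was rag2, from 1.73 ± 0.350 to 0.970 ± 0.291 CPM (edgeR adjusted p = 0.0469). The T lymphocyte genes cd8a and cd247 had 0 counts in wild type and 1 each over all mutants, and cd4-1 stood at 0.0428 and 0.0942 CPM. The part of T lymphocyte markers in the rise of tnfrsf9a was not tested. B lymphocyte markers rose for 3 and fell for 1 of 7 genes tested (sums 686 to 734 and 842 to 877 CPM, most of it from cd81a, which many cells express). Of 22 neuron markers 21 fell and 0 rose, with sums of 2836.8 to 2930.7 and 1391.6 to 1769.3 CPM. Of 17 periderm and epidermis markers 4 rose and 7 fell (22104.8 to 25489.7 and 14196.2 to 20991.9 CPM). The largest part of that sum was krt4, which fell (means 10057.5 and 5621.4 CPM), and the 4 that rose were tp63, epcam, cldne and cldni. The part of the neuron and epidermis markers in the values of ngfra, tnfrsf19 and tnfrsf21 was not tested.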

How the data were processed

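RNA was purified with a Qiagen kit and mRNA was isolated, per the labels' protocols. No source used here says whether libraries were stranded, so antisense reads may be included in a gene's count. Build GRCz11 and the tools RSEM 1.3.1, Bowtie2 and DESeq2 1.4.5 were used, per the submitters' processing notes, which give no settings. The deposited table holds estimated counts per gene, of which 10.7% to 11.6% per sample are not whole (tolerance 0.005). The authors also deposited FPKM values, which scale counts by transcript length and depth. The group averages and TPM were not used, and the columns of other samples numbered 0.

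Samples were grouped by title. Counts were rounded, filtered with filterByExpr, scaled by TMM and tested on genotype alone with edgeR 4.0.16 in R 4.3.3 (robust quasi-likelihood F-test, threshold 0.05). SE is the log2 fold change divided by the square root of F. Every gene of the family is accounted for. Values per sample are given for genes past the threshold with at least a 2-fold change, for the 5 with the highest FPKM and for both copies of a pair, and from each pathway list up to 3 genes per direction with the smallest p. Some further genes were given per sample after their values were seen. Genes and lists were chosen with earlier results of these data known, and their sequences are not shown. Alternatives were other scalings and filters, blocking on replicate number, leaving out each sample, DESeq2 1.42.0, limma 3.58.1 (voom, and trend on log2(FPKM + 1) and log2(FPKM + 0.1)) and other thresholds. Marker sums without their most abundant genes were added after the data were seen. Intervals were taken on counts added over the samples of a genotype, so they cover counting error only and not the spread between samples. PCR copies of a molecule were not told apart by identifiers, so even that error may be understated. A floor of 3 counts equals 0.191 to 0.218 CPM.

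The pikfyve-delta8 against wild type test was first tested on simulated data with known changes.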

Additional observations from a re-analysis of the deposited data

How the results depend on the processing

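Over 10 other scalings, filters and tests the number of family genes called higher ran from 11 to 14, against 13, and with 1 sample left out from 12 to 15. The number called lower was 1, and 2 with library size alone and on both FPKM scales, where tnfrsf19 joined tnfsf12. With a 2-fold minimum 8 were higher, 0 lower, and 2787 of all genes were called, against 10140. The median log2 fold change of the family, 0.54, was 0.49 to 0.70 with 1 sample left out. On the log2(FPKM + 1) scale it was 0.32 over 23 family genes, beside -0.12 for all genes. Of 408 values of single family genes under an alternative, 389 kept direction and side of the threshold, 12 lost the call (10 of traf2b, 2 of tnfsf10l), 7 gained one and 0 reversed. The cause was not tested. Deviations of same-numbered samples correlated at -0.0745, 0.0503 and -0.0479, and those of other pairings at -0.0971 to 0.143. With 3 samples per genotype this cannot tell whether samples of the same number were prepared together. With the replicate number as a block 9575 of all genes were called and 12 family genes were higher and 1 lower, as traf2b lost its call (adjusted p = 0.0508). Low counts limit tnfrsf9b, tnfrsf13b, tnfrsf18, tnfsf14 and tnfsf18, for which a change was not detectable at this depth except where stated.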
